A study of Mus musculus with 18 samples.

Results

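A set of 10 transporter genes that carry bile acids and other organic anions across the hepatocyte membrane were followed in mouse liver: Slc10a1, Slco1a1, Slco1a4, Slco1b2, Slco2b1, Abcb11, Abcc2, Abcc3, Abcc4 and Slc51b. They were taken by gene symbol, with no value in the rule, and are 10 of the 56691 genes in the table. All 10 passed the filter on low counts that left 14595 genes. The mice were wild-type C57BL/6, and liver RNA was sequenced in 6 libraries per group, 18 in all. Sham animals were opened under anaesthesia without a clamp. In the ischemia-reperfusion group (IR) a clip closed the portal triad for 1 h, leaving about 70% of the liver without blood, and 6 h of reperfusion followed. The third group (IR-Ori) had the same injury and received oridonin, a plant diterpenoid. Dose, route, timing and the age of the mice were not given by the sources used here, nor is it said whether the libraries of a group are separate animals, so p-values measure the spread between these libraries only.

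Hepatocytes take bile acids from portal blood across the sinusoidal membrane and export them into bile across the canalicular membrane, and this vectorial transport drives bile flow. Slc10a1 (NTCP) is the sodium-dependent uptake carrier for conjugated bile acids, and the Slco genes encode the sodium-independent organic anion transporting polypeptides. Abcb11 (BSEP) is the canalicular bile salt export pump, and Abcc2 (MRP2) exports bilirubin glucuronides and glutathione conjugates into bile. Abcc3 (MRP3), Abcc4 (MRP4) and Slc51b, the beta subunit of the heteromeric transporter OSTα-OSTβ, move their substrates back to blood and are known to rise in cholestasis. The bile acid receptor FXR (Nr1h4) is known to induce Abcb11 and Slc51b, and NRF2 (Nfe2l2) is known to induce several Abcc genes.

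The windows of 250 bases upstream of a RefSeq start site (build GRCm38.p6) were read for 9 of the 10 genes, 13 windows in all. Those of Slc51b, Abcb11 and Slco1a4 are printed, the first because it was the 1 transporter that rose in IR, the second because it is the canalicular counterpart with the same known receptor, and the third because its level moved most between IR-Ori and IR among the uptake genes. Each is written 5′ to 3′ on the gene's strand, and capitals mark a match to the nuclear receptor motif AGGTCA on either strand.
Slc51b, chr9:65422774-65423023, minus strand: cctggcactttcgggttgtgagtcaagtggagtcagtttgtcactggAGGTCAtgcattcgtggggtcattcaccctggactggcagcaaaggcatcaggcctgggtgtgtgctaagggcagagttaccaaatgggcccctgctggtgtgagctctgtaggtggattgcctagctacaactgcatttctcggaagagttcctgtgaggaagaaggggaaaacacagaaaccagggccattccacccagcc
Abcb11, chr2:69342617-69342866, minus strand: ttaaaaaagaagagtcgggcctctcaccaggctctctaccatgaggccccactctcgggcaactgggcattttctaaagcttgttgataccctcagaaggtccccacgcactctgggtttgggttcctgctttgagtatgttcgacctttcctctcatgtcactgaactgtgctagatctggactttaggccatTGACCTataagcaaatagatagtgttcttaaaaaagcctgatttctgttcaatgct
Slco1a4, chr6:141856221-141856470, minus strand: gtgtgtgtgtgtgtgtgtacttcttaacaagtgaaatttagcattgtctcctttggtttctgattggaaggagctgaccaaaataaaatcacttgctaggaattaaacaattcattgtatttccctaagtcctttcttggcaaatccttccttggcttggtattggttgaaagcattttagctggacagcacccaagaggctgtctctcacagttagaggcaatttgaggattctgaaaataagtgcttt
This motif stood 203 bases before the start site of Slc51b and, on the opposite strand, 56 bases before that of Abcb11. It was absent from these letters of the Slco1a4 window. Slc10a1, Slco1a1, Slco1b2 and Abcc2 held it too, so 6 of 9 genes did, beside 14.0% of 32851 RefSeq windows of the same length. The antioxidant response element core TGACNNNGC was found on either strand in the windows of Abcc2 and Abcc4, beside 10.2% of all windows, and the HNF1 motif GTTAAT in that of Slco1b2, beside 6.43%. The 3 motifs were searched on both strands and could overlap each other. A gene with several start sites had several windows, so the shares per gene and per window have different bases. A match describes letters and shows no binding.

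Libraries held 12449529 to 19798188 counts. Mitochondrially encoded genes took 10.3 to 42.8% of the sham counts, 6.52 to 42.9% of those in IR and 14.1 to 32.0% with oridonin, and this share enters the deposited FPKM (fragments scaled by gene length and library total), because the library total includes it. Fold changes come from counts after trimmed mean of M-values (TMM) scaling. Hepatocyte markers were abundant in every library: albumin and the other 7 hepatocyte markers summed to between 13815 and 46465 FPKM in sham libraries, 23533 and 32298 in IR libraries, and 26223 and 40005 in IR-Ori libraries. None of these 8 markers passed the edgeR test or an unadjusted p in any comparison, and DESeq2 and limma also called 0. Neutrophil markers rose in IR, 7 of 7 tested beside 5.52% of all genes, and summed to between 3.89 and 26.4 FPKM in sham libraries, 65.3 and 304.1 in IR libraries, and 7.58 and 62.4 in IR-Ori libraries. In bulk liver, fewer hepatocytes and less RNA per hepatocyte cannot be told apart, and what part infiltrating cells had in the values below was not tested. IR-Ori 3 and IR-Ori 4 were the closest pair of any group (chi-square per gene 16.0, next 35.98), and results that rest on them are given without them as well.

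Measured per length, as FPKM, the most abundant transporter in sham liver was Slco1b2, at 154.45 ± 34.6 FPKM (mean ± SD, n = 6), followed by Slc10a1 at 123.48 ± 65.8. The canalicular pumps Abcc2 and Abcb11 followed at 67.9 ± 12.7 and 64.7 ± 9.92 FPKM, and Slco1a1 stood at 48.1 ± 25.3. Abcc3 was at 29.8 ± 6.76, Slco2b1 at 17.1 ± 2.71 and Slco1a4 at 10.39 ± 3.91 FPKM. Abcc4, at 0.478 ± 0.153, and Slc51b, at 0.462 ± 0.433, lay far below the rest. Among neighbours in this order only Slco1a4 and Abcc4 had ranges that did not meet, so neighbours within the 8 upper genes overlapped. Some genes further apart did not: the lowest Slco1b2 library, at 117.2 FPKM, lay above the highest of Abcc2 (82.0) and of Abcb11 (75.98). Abcc3 was above Slco2b1 in 6 of 6 sham libraries. Slco1b2 also led in IR (91.1 ± 25.9 FPKM) and in IR-Ori (112.0 ± 53.1). Slc51b stood above Abcc4 in 6 of 6 IR libraries and 5 of 6 IR-Ori libraries, against 2 of 6 sham libraries.

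**Figure D1:**
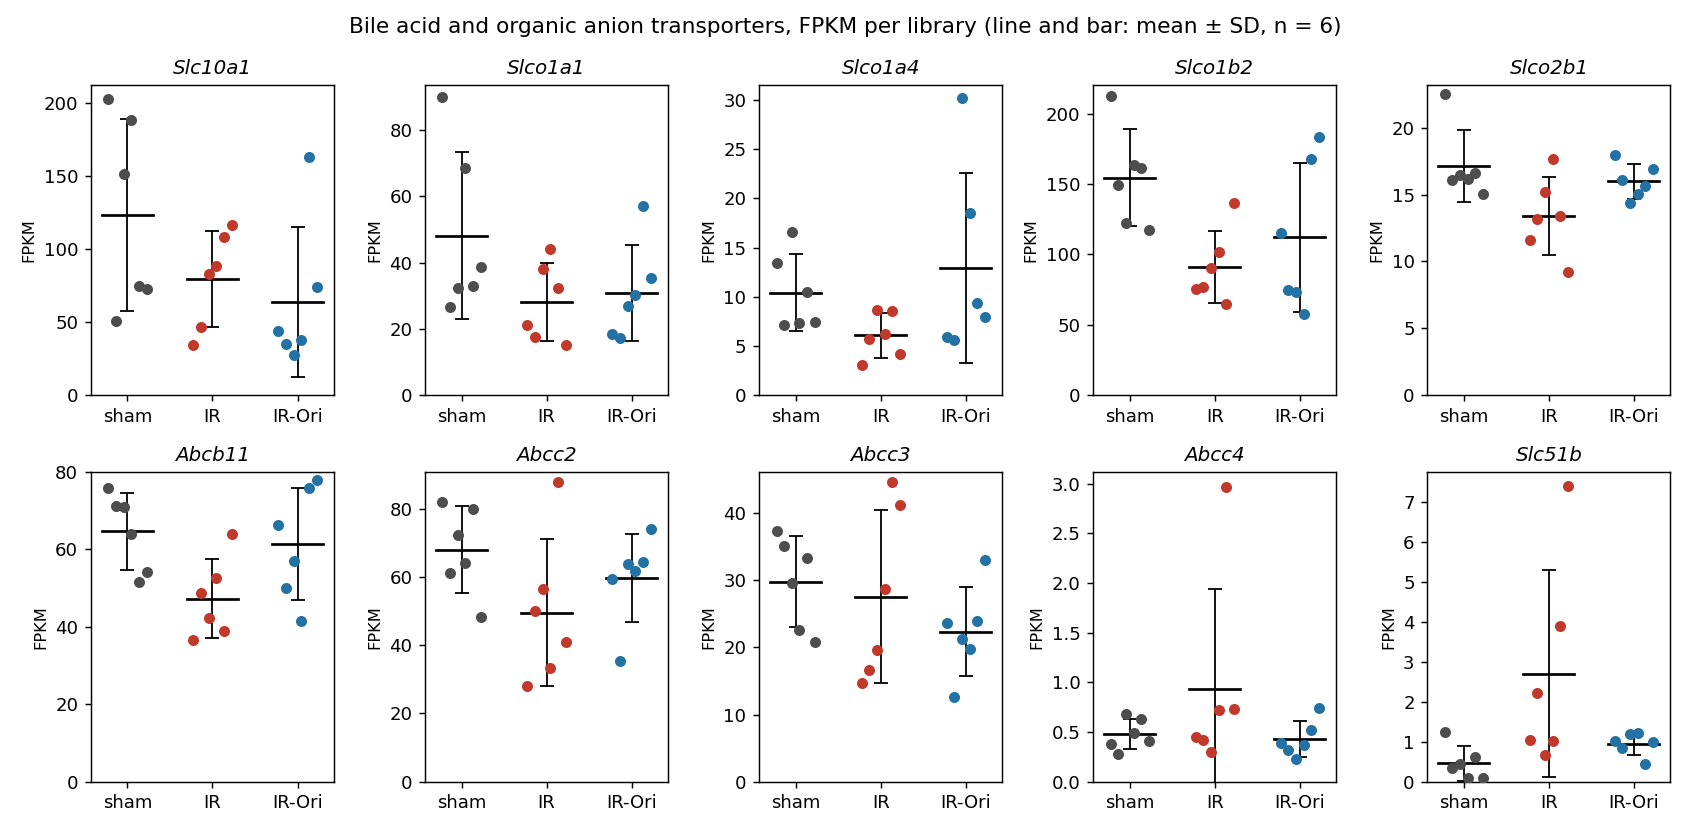
Each panel gives FPKM (vertical axis, from 0) for 1 transporter in sham, IR and IR-Ori, 1 point per library, with the mean as a line and the SD as a bar (n = 6; bars stop at 0). Slco1b2 lies lower in 5 of 6 IR libraries than in any sham library, and Slc51b in IR reaches 7.38 FPKM against at most 1.24 in sham.

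Ischemia and reperfusion were compared with sham surgery to ask what the injury does to liver transcripts. Of the 10 transporters, 1 rose: Slc51b, by 2.46 ± 0.63 on the log2 scale (SE; edgeR adjusted p = 0.0216), beside 5.52% of all genes tested that were called higher. None fell in edgeR, beside 2.36% of all genes. At an unadjusted p, 6 of 10 were lower, beside 9.87% of all genes: Abcb11, Abcc2, Slco1a1, Slco1a4, Slco1b2 and Slco2b1. DESeq2 called 2 of them lower, Slco1b2 (adjusted p = 0.0417) and Slco2b1 (adjusted p = 0.0268), beside 4.83% of all genes, and limma on log2(FPKM + 1), which tested 9 of the 10, called 0 lower and Slc51b higher (1.14 on that scale, limma adjusted p = 0.0385). By sign alone 8 of 10 fold changes were below 0, beside 49.8% of all genes, and the median over the 10 was -0.54 against 0.00 over all genes. The members share tissue and libraries and are not independent, so these counts are descriptions.

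**Figure D2:**
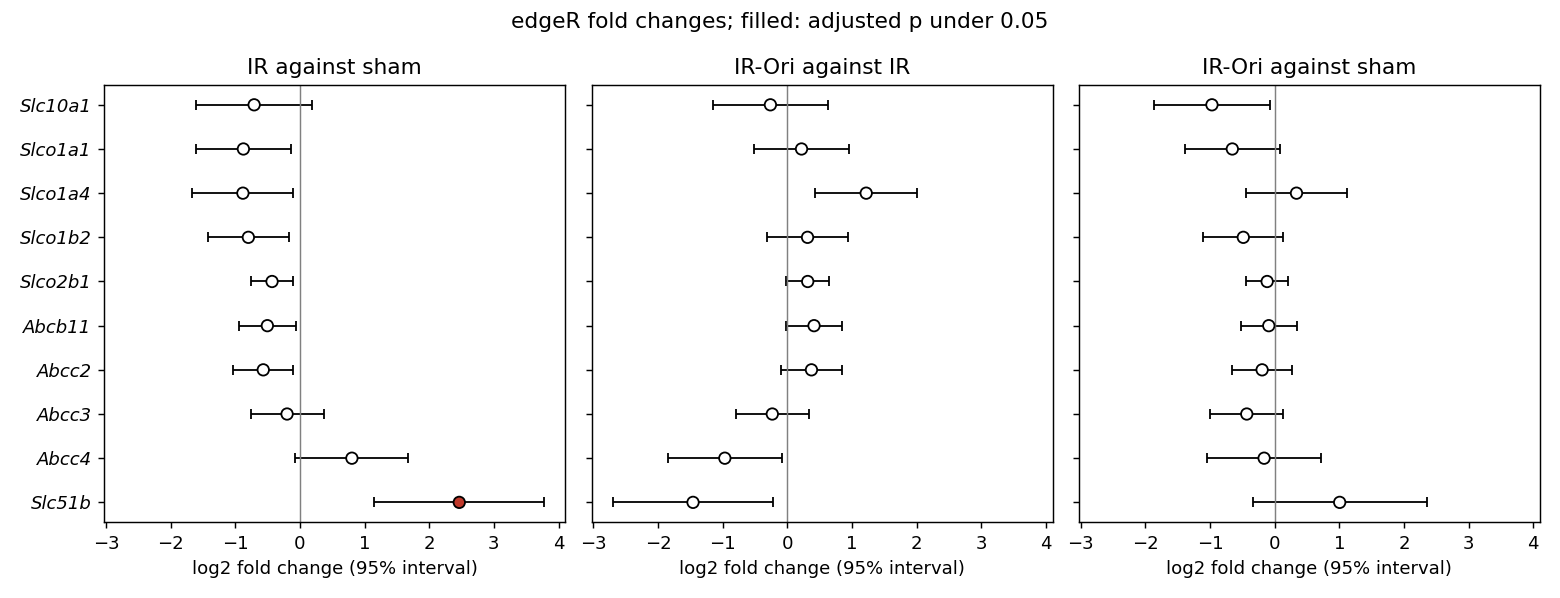
Points are log2 fold changes from edgeR with 95% intervals (horizontal axis) for the 10 transporters in the 3 comparisons, and a filled point has an adjusted p under 0.05. Slc51b in IR against sham is the only filled point, and 8 of the 10 points in that panel lie left of 0.

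Among the uptake carriers, Slco1b2 (OATP1B2, the main liver OATP of the mouse) was separated most clearly. Its FPKM ran from 117.2 over a median of 155.4 to 212.8 in sham and from 64.9 over 83.7 to 136.8 in IR. Of the IR libraries, 5 lay below every sham library, the exception was IR 6, and an IR library was the higher in 2 of the 36 pairs. The log2 difference was -0.80 ± 0.30 (95% interval -1.42 to -0.17), which did not pass in edgeR (adjusted p = 0.107). Slco1a4 (OATP1A4, which also carries digoxin) ran from 7.13 over 8.95 to 16.6 FPKM in sham and from 3.08 over 5.94 to 8.60 in IR. All 6 IR libraries were below the sham median and 4 below every sham library. Its log2 difference was -0.88 ± 0.37 (edgeR adjusted p = 0.155). Fitted to the sham and IR libraries alone it passed (-0.89, edgeR adjusted p = 0.0478), as it did without IR-Ori 3 and IR-Ori 4 (-0.93, adjusted p = 0.0296), in both of which the spread is estimated without those libraries.

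Slc10a1 varied widely, from 50.4 over 113.1 to 203.2 FPKM in sham and from 34.3 over 85.8 to 116.8 in IR. The groups overlapped widely, with 12 of 36 pairs higher in IR, and the log2 difference of -0.71 ± 0.43 did not pass (interval -1.61 to 0.19, edgeR adjusted p = 0.337). Slco1a1 (OATP1A1) ran from 26.4 over 35.8 to 89.96 FPKM in sham and from 15.2 over 26.6 to 44.1 in IR, a log2 difference of -0.87 ± 0.35 (edgeR adjusted p = 0.133). Here 3 IR libraries were below every sham library and 2 were above the sham median. Slco2b1 (OATP2B1, a carrier of steroid sulfates) had the smallest SD in FPKM of the uptake genes in sham (2.71) and IR-Ori (1.29). In IR its SD was 2.90 at a mean of 13.4, against 2.24 at a mean of 6.05 for Slco1a4. Slco2b1 ran from 15.01 over 16.3 to 22.6 FPKM in sham and from 9.23 over 13.3 to 17.7 in IR. Its log2 difference of -0.43 ± 0.16 did not pass (edgeR adjusted p = 0.0981), and 4 IR libraries lay below every sham library.

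The canalicular pumps were lower in most but not all IR libraries. Abcb11 ran from 51.7 over 67.4 to 75.98 FPKM in sham and from 36.6 over 45.6 to 64.1 in IR. All 6 IR libraries were below the sham median and 4 below the lowest sham library. The log2 difference was -0.50 ± 0.21 (interval -0.94 to -0.07, edgeR adjusted p = 0.146). Abcc2 ran from 48.2 over 68.2 to 82.0 FPKM in sham and from 28.1 over 45.6 to 87.8 in IR. In FPKM the highest value of both groups was an IR library, IR 5, and 3 others lay below every sham library. In TMM-scaled CPM the highest was instead a sham library, sham 1 at 726.8, with IR 5 at 598.1. The log2 difference of Abcc2, -0.57 ± 0.22, did not pass either (edgeR adjusted p = 0.127).

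Of the basolateral exporters, Slc51b moved and the other two did not pass. Slc51b rested on 1 to 16 counts per library in sham and 7 to 82 in IR. It ran from 0.08 over 0.38 to 1.24 FPKM in sham and from 0.66 over 1.63 to 7.38 in IR. All 6 IR libraries were above the sham median, 3 were above every sham library, and an IR library was the higher in 33 of 36 pairs. The 95% interval of the log2 difference was 1.15 to 3.78, so its size is known only roughly. Without IR 6, the library with 82 counts, the difference was 1.74 and the call was lost (edgeR adjusted p = 0.0697), and fitted to sham and IR alone it was 2.43 (adjusted p = 0.0533). Its partner subunit Slc51a, without which the transporter is not formed at the membrane, stood at 0.163 ± 0.0991 FPKM in sham and 0.218 ± 0.0794 in IR (log2 difference 0.28 ± 0.45, edgeR adjusted p = 0.753). Cholangiocytes also express both subunits. Of 7 cholangiocyte markers tested, edgeR called 1 higher in IR, Sox9, beside 5.52% of all genes. DESeq2 called 2 higher, beside 1113 of 14595 genes. In IR-Ori against IR edgeR called Sox9 lower, beside 3.01% of all genes, and DESeq2 called 4 lower, beside 886 of 14595. The summed level of the 8 markers listed was mostly Spp1. It lay between 21.5 and 59.9 FPKM in sham, 42.2 and 86.4 in IR, and 13.03 and 38.8 in IR-Ori libraries. What part these cells had in the Slc51b values was not tested.

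Abcc4 rested on 23 to 86 counts per library in sham and 29 to 276 in IR. It ran from 0.28 over 0.45 to 0.68 FPKM in sham and from 0.30 over 0.585 to 2.97 in IR, where IR 5 stood alone and the next library was at 0.73. The log2 difference of 0.80 ± 0.42 did not pass (edgeR adjusted p = 0.253), and without IR 5 it was 0.15 (adjusted p = 0.863). Abcc3 ran from 20.9 over 31.4 to 37.3 FPKM in sham and from 14.6 over 24.2 to 44.6 in IR. In FPKM its IR libraries lay on both sides of the sham range, 3 below all and 2 above all sham libraries. In TMM-scaled CPM IR 5, at 202.9, was not above all sham libraries, since sham 1 was at 220.8. The log2 difference of Abcc3 was -0.20 ± 0.27 (edgeR adjusted p = 0.706).

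**Figure D3:**
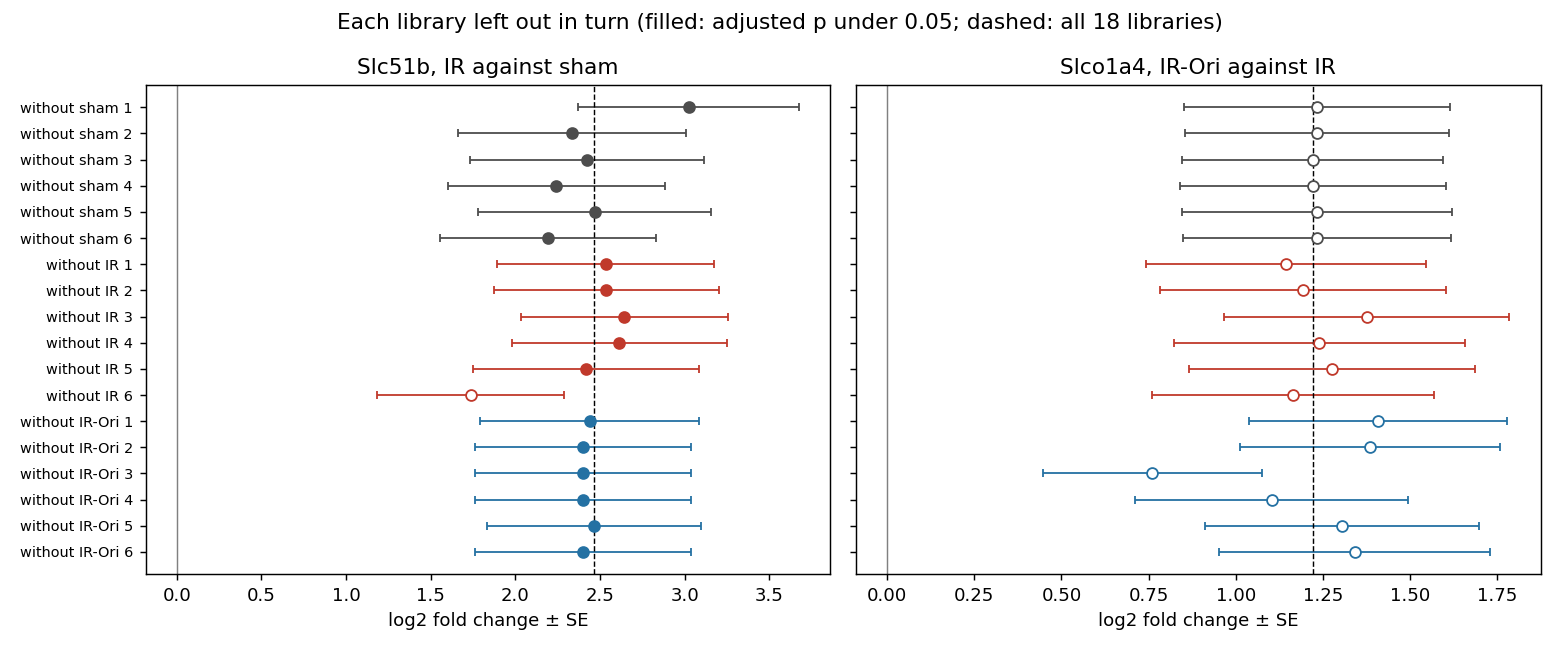
Each row leaves out 1 of the 18 libraries, and the point is the log2 fold change with its SE (horizontal axis, from edgeR) of Slc51b in IR against sham (left) and of Slco1a4 in IR-Ori against IR (right); filled points have an adjusted p under 0.05 and the dashed line is the value with all libraries. Slc51b is open only without IR 6, at 1.74, and Slco1a4 is lowest without IR-Ori 3, at 0.76.

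The comparison of IR-Ori with IR asks what oridonin does in the injured liver, and it shares the IR libraries with the comparison above. No transporter passed in edgeR, beside 0.596% of all genes called higher and 3.01% called lower. At an unadjusted p, 1 of 10 was higher, Slco1a4, beside 9.81% of all genes, and 2 were lower, Abcc4 and Slc51b, beside 14.4%. DESeq2 called 1 higher, Slco1a4 (adjusted p = 0.0222), beside 3.08% of all genes, and limma called 0 of 9. The median log2 difference of the 10 was 0.27 against 0.00 over all genes.

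Slco1a4 had the largest positive difference, 1.22 ± 0.38 on the log2 scale (interval 0.43 to 2.01, edgeR adjusted p = 0.0705). Its level ran from 3.08 over 5.94 to 8.60 FPKM in IR and from 5.55 over 8.66 to 30.2 in IR-Ori, and 3 IR-Ori libraries were above every IR library. IR-Ori 3, at 30.2, and IR-Ori 4, at 18.5, were the highest of all 18. Without IR-Ori 3 the difference was 0.76 (adjusted p = 0.190), and without both it was 0.36 (adjusted p = 0.474). Slco2b1 ran from 14.4 over 15.8 to 17.96 FPKM in IR-Ori, with all 6 libraries above the IR median, and differed by 0.32 ± 0.16 (edgeR adjusted p = 0.223). Slco1b2 split into 3 and 3 around the IR median and ran from 57.5 over 94.95 to 183.5 FPKM (0.31 ± 0.30, edgeR adjusted p = 0.522). Slco1a1 ran from 17.3 over 28.5 to 57.1 (0.22 ± 0.35, edgeR adjusted p = 0.719). Slc10a1 ran from 27.6 over 40.8 to 163.3 FPKM, where IR-Ori 5 was the high value and 5 of 6 were below the IR median (-0.26 ± 0.43, edgeR adjusted p = 0.730).

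Abcb11 in IR-Ori ran from 41.5 over 61.7 to 78.0 FPKM, 5 of 6 libraries above the IR median and 3 above every IR library, a log2 difference of 0.41 ± 0.21 (edgeR adjusted p = 0.228). Abcc2 ran from 35.4 over 62.6 to 73.9, likewise with 5 of 6 above the IR median (0.37 ± 0.22, edgeR adjusted p = 0.303). Slc51b rested on low counts, 5 to 14 per library, and ran from 0.45 over 1.01 to 1.21 FPKM with all 6 libraries below the IR median. The log2 difference of -1.46 ± 0.60 did not pass (interval -2.70 to -0.21, edgeR adjusted p = 0.148), and without IR 6 it was -0.73. Abcc4 ran from 0.23 over 0.38 to 0.74 FPKM (-0.97 ± 0.42, edgeR adjusted p = 0.171), and without IR 5 the difference was -0.31. Abcc3 ran from 12.6 over 22.4 to 33.0 FPKM (-0.23 ± 0.27, edgeR adjusted p = 0.608).

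IR-Ori was also set against sham, the controls of the first comparison. No transporter passed and no gene did in edgeR (0.0% of 14595), although 1460 genes had an unadjusted p under the threshold. DESeq2 called 38 genes and limma 0. Slc10a1 had the smallest unadjusted p of the 10, 0.0365 (log2 difference -0.97 ± 0.43, interval -1.87 to -0.07, edgeR adjusted p = 0.498), and was the 1 member lower at an unadjusted p, beside 3.66% of all genes. In 4 of 6 IR-Ori libraries it lay below every sham library, and only IR-Ori 5 stood above the sham median. Slco1a1 differed by -0.65 and Slco1b2 by -0.48, while Abcb11 (-0.09), Slco2b1 (-0.12), Abcc4 (-0.16) and Abcc2 (-0.19) had the smallest differences. Slc51b differed by 1.01 with all 6 IR-Ori libraries above the sham median (edgeR adjusted p = 0.532). No member had groups without overlap in any comparison. Beside that, 2.04% of all genes lay entirely higher and 1.13% entirely lower in IR than in sham. In IR-Ori against IR these shares were 0.391% and 1.1%, and in IR-Ori against sham 0.171% and 0.0343%.

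Slc10a1 moved with the mitochondrial share of a library inside sham and IR, and in IR-Ori this rests on 1 library. In the 3 sham libraries with a share under 15% it stood at 151.4 to 203.2 FPKM, and in the other 3 at 50.4 to 74.9. In IR the corresponding ranges were 88.6 to 116.8 and 34.3 to 83.0, and in IR-Ori the single library with a low share, IR-Ori 5, was at 163.3 against 27.6 to 73.9. Since FPKM divide by a total that includes mitochondrial counts, 1 slope common to the 3 groups was fitted on TMM-scaled counts. Per 10 percentage points of share, Slc10a1 changed by -0.56 ± 0.10 on the log2 scale (edgeR adjusted p = 0.000321). It was the only 1 of 10 members called. Beside that, 23.0% of all genes were called lower and 2898 of 14595 higher with a larger share, so a call was not particular to this gene. The slopes of Slc51b (-0.43 ± 0.23, edgeR adjusted p = 0.144), Abcc4 (-0.29 ± 0.16, adjusted p = 0.152) and Slco1a1 (-0.25 ± 0.12, adjusted p = 0.106) did not pass, and Slco1b2 (-0.08 ± 0.11) and Abcb11 (-0.05 ± 0.07) had the flattest slopes beside Slco2b1 (0.03 ± 0.06). With all libraries, differences in the mean share did not pass: IR minus sham was -2.64 points, IR-Ori minus IR 7.86 and IR-Ori minus sham 5.22 (exact permutation, two-sided, n = 6 each, p = 0.712, 0.212 and 0.370). Single libraries moved them: without IR 1 the second was 12.6 points (exact permutation p = 0.0216), and without sham 2 the first was 1.54 and the third 9.40 (exact permutation p = 0.0433). With the share as a covariate the Slc10a1 difference between IR and sham was -0.75 ± 0.27, which did not pass (edgeR adjusted p = 0.0718). In the same fit the Slc51b difference was 2.28 (edgeR adjusted p = 0.0187). Within the libraries under 15% it was 2.71 (adjusted p = 0.109) and within the others 1.88 (adjusted p = 0.287), both on 3 libraries against 3. Abcc3 in IR was at 28.7 to 44.6 FPKM in the libraries with a low share and at 14.6 to 19.6 in the others.

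**Figure D4:**
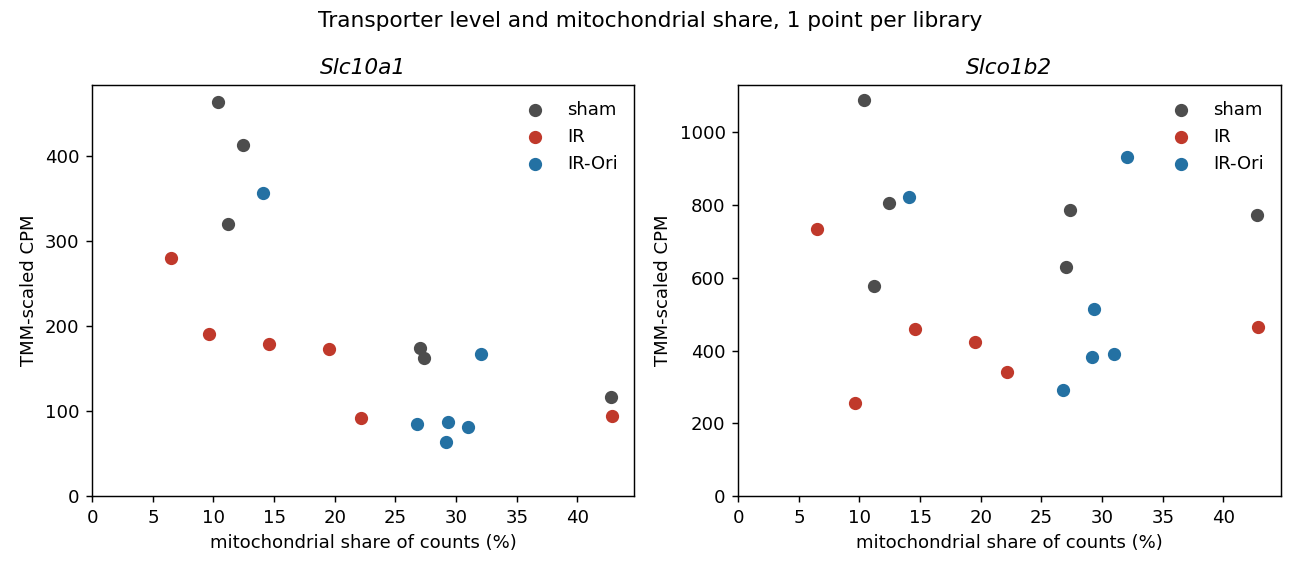
Each point is 1 library, with the mitochondrial share of its counts in percent (horizontal axis) and TMM-scaled CPM (vertical axis, from 0) of Slc10a1 (left) and Slco1b2 (right). The slope of Slc10a1, fitted jointly over the 3 groups, is -0.56 on the log2 scale per 10 points, and that of Slco1b2 is -0.08. In IR-Ori the highest Slc10a1 value is the library with the lowest share, IR-Ori 5. The next, at 167.5, is the library with the largest share, IR-Ori 6.

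The 3 Slco genes Slco1b2, Slco1a4 and Slco1a1 lie within 317445 bases of chromosome 6 (GRCm39, 141575244 to 141892688), with other annotated genes between them, among them Gm5724 and Gm30784. The first is on the plus strand (ENSMUSG00000030236, 141575244 to 141632372) and the others are on the minus strand (ENSMUSG00000030237, 141751166 to 141801925, and ENSMUSG00000041698, 141853008 to 141892688). Slco1a4 and Slco1a1 share 84 stretches of 50 bases in their GENCODE M21 transcripts, 1.31% and 1.58% of their own stretches, and Slco1a4 shares 100 with Slco1a5, so reads within those stretches may be hard to assign, which depends on a read length not known here. Their FPKM ratio, Slco1a4 over Slco1a1, was 0.107 to 0.512 in sham and 0.140 to 0.327 in IR. In IR-Ori it was 0.165 to 1.13, with IR-Ori 3 and IR-Ori 4 highest at 1.13 and 0.614, so neighbours on the chromosome did not keep 1 ratio across libraries. Of the summed FPKM of the 5 uptake genes, Slco1b2 held a median of 43.0% in sham, against 43.8% in IR and 46.4% after oridonin, and Slc10a1 33.2%, 34.8% and 23.4%. The other members are scattered over the genome (GRCm39): Slc51b on chromosome 9 (65319996 to 65330237, minus strand), Abcb11 on chromosome 2 (69068626 to 69172960, minus strand) and Slc10a1 on chromosome 12 (80999957 to 81015479, minus strand). All 10 are protein-coding.

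Which genes had the most similar pattern over the 18 libraries was described by Pearson's r of log2 TMM-scaled counts, over all protein-coding genes tested. Abcb11 was most like another transporter, Slco1b2 (r = 0.85, and r = 0.85 after group means were removed). Slco1b2 was most like Ptprd (0.97) and Fn3k (0.94). Slc10a1 was most like Tsen34 (0.97) and Hadh (0.97), a mitochondrial enzyme of fatty acid oxidation. Slc51b was most like Rnf144a (0.91, and 0.84 within groups) and Abcc4 most like Slc48a1, a heme transporter (0.91, and 0.90 within groups). Slco1a4 was most like Rabgap1l (0.89), Slco2b1 like Il18 (0.87), Abcc3 like Mfn1 (0.85), Abcc2 like Tbcel (0.84) and Slco1a1 like Idh1 (0.83). These points share libraries, depth and the mitochondrial share, and were picked as the highest of all genes.

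Of 24 other bile acid, organic ion and bile lipid transporters tested, 1 rose in IR, beside 5.52% of all genes. It was Abcc1 (MRP1, an efflux pump), by 1.38 ± 0.36 (edgeR adjusted p = 0.0252). Its level was low, 0.125 ± 0.0599 FPKM in sham and 0.352 ± 0.202 in IR. Beside 2.36% of all genes, 2 of the 24 fell, Slc47a1 (MATE1, a canalicular exporter of organic cations; -1.56 ± 0.43, adjusted p = 0.0321) and the copper pump Atp7b (-0.68 ± 0.20, adjusted p = 0.0398). By limma, 0 of this list were higher in IR and 1 lower, beside 390 and 204 of 11326 genes. Abcb4, the phospholipid floppase of bile, differed by -0.12 ± 0.25 (edgeR adjusted p = 0.822). Between IR-Ori and IR, edgeR called 0 of these 24 and limma 0. At an unadjusted p 2 were higher and 4 lower (9.81% and 14.4% of all genes). DESeq2 called 4 lower, beside 886 of 14595 genes.

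Of 18 genes of bile acid synthesis and conjugation, 3 fell in IR, beside 2.36% of all genes. Cyp7a1, the rate-limiting enzyme of the classical pathway, fell from 33.2 ± 24.1 to 3.82 ± 1.35 FPKM (-3.14 ± 0.57, edgeR adjusted p = 0.00311). Akr1d1, the steroid 5-beta reductase, fell by 1.37 ± 0.39 (adjusted p = 0.0367) and Amacr, a racemase of side chain shortening, fell by 0.83 ± 0.22 (adjusted p = 0.0284). Cyp7a1 was the 1 gene of these 18 that edgeR called in IR-Ori against IR, beside 0.596% of all genes called higher. There it rose by 2.36 ± 0.55 (edgeR adjusted p = 0.0241). Its level ran from 1.87 over 3.72 to 5.69 FPKM in IR and from 4.96 over 14.4 to 55.8 in IR-Ori (19.4 ± 18.9). By DESeq2, 1 of the 18 was higher, beside 3.08% of all genes, and by limma 0, beside 38 of 11326 genes.

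Among 23 regulators of transporter genes tested, 1 fell in IR, beside 2.36% of all genes: the estrogen receptor Esr1 (-1.88 ± 0.29, edgeR adjusted p = 0.00122). Nr1h4, which encodes FXR, was at 145.6 ± 69.0 FPKM in sham, at 77.2 ± 40.95 with IR and at 170.04 ± 58.1 with oridonin. Its differences were -0.93 ± 0.39 in IR against sham (edgeR adjusted p = 0.148) and 1.12 ± 0.39 in IR-Ori against IR (adjusted p = 0.1001). Nr0b2 (SHP), a repressor that FXR induces, was at 17.5 ± 4.39, 24.3 ± 13.2 and 12.8 ± 8.88 FPKM, with differences of 0.45 ± 0.43 (adjusted p = 0.579) and -0.92 ± 0.44 (adjusted p = 0.202). Between IR-Ori and IR edgeR and limma called 0 of the 23, 4 were higher and 1 lower at an unadjusted p (9.81% and 14.4% of all genes), and DESeq2 called 4 higher, beside 3.08%.

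The transcript of NRF2 itself, Nfe2l2, differed by -0.18 ± 0.27 in IR (edgeR adjusted p = 0.738). Of 13 NRF2 target genes, edgeR called 6 higher and 0 lower, beside 5.52% and 2.36% of all genes. By DESeq2, 7 were higher and 1 lower, beside 1113 and 705 of 14595 genes. By limma, 4 were higher and 0 lower, beside 390 and 204 of 11326 genes. Srxn1, which reduces oxidised peroxiredoxins, rose by 3.83 ± 0.55 (adjusted p = 0.000726), the cystine transporter Slc7a11 by 5.12 ± 0.86, Gsta1, a glutathione transferase, by 3.56 ± 0.68 and heme oxygenase Hmox1 by 3.21 ± 0.71. Relative to IR, edgeR called 5 of 13 lower with oridonin, beside 3.01% of all genes. Among them were Srxn1 (-3.21 ± 0.54, edgeR adjusted p = 0.00429), Slc7a11 (-4.74 ± 0.84), Gclc (-1.82 ± 0.42) and Txnrd1 (-1.28 ± 0.31). By DESeq2, 8 were lower, beside 886 of 14595 genes, and by limma 1, beside 95 of 11326 genes. Abcc2, Abcc3 and Abcc4, which NRF2 is known to induce, did not pass in either comparison.

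Of 22 scaffold, trafficking and canalicular membrane genes, edgeR called 0 lower and 4 higher in IR, beside 2.36% and 5.52% of all genes. Among the 4 were the membrane-cytoskeleton linkers Msn (1.06 ± 0.18, edgeR adjusted p = 0.00243) and Ezr (1.06 ± 0.26, adjusted p = 0.0183). The recycling endosome gene Rab11fip5 was another (1.15 ± 0.33, adjusted p = 0.0384), at a low level, 0.152 ± 0.0598 FPKM in sham and 0.362 ± 0.194 in IR. By DESeq2, 1 of the list was lower and 5 higher, beside 705 and 1113 of 14595 genes. By limma, 0 were lower and 3 higher, beside 204 and 390 of 11326 genes. Msn and Ezr are also abundant in leukocytes, whose markers rose in IR, and their part was not tested. Relative to IR, edgeR called 3 of the 22 lower with oridonin, beside 3.01% of all genes, Msn (-0.98 ± 0.18), Ezr (-1.10 ± 0.26) and Rab11fip5 (-1.40 ± 0.34). By DESeq2, 6 were lower and 1 higher, beside 886 of 14595 genes and 3.08%. By limma, 1 was lower, beside 95 of 11326 genes. Of 11 genes of bilirubin and glucuronide handling edgeR called 0 in IR against sham. Lower were 4 at an unadjusted p (9.87% of all genes), 2 by DESeq2 (4.83%) and 1 by limma (204 of 11326 genes). In IR-Ori against IR edgeR called 0, with 1 higher at an unadjusted p (9.81% of all genes), by DESeq2 (3.08%) and by limma (38 of 11326 genes). Over all 111 genes tested of these 6 lists, 0 passed in IR-Ori against sham by edgeR, DESeq2 or limma, and 4 were higher and 7 lower at an unadjusted p, beside 6.34% and 3.66% of all genes.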

How the data were processed

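RNA sequencing libraries of mouse liver were compared in 3 groups of 6. The submitters' processing notes list cutadapt 1.9.1, HISAT2 2.2.1, the build GRCm39 and DESeq2 with no version. Not given in the sources used here are the counting tool, its strand setting and the annotation. The authors' deposited table holds unscaled whole-number counts per gene, exonic gene sizes, and FPKM that the authors made from them. Dividing each count by gene size and library total, mitochondrial counts included, returned 100% of the deposited FPKM within 0.0051.

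Counts were tested with edgeR 4.0.16 (R 4.3.3): filterByExpr (minimum count 10, minimum total 15), which left 14595 of 56691 genes, TMM scaling, and 1 quasi-likelihood model over all 18 libraries with 15 residual degrees of freedom. F tests were two-sided with Benjamini-Hochberg adjustment over all genes tested, at a threshold of 0.05. A standard error is the log2 fold change divided by the square root of F. DESeq2 1.42.0, limma 3.58.1 on log2(FPKM + 1) or (FPKM + 0.1) for genes at 1 FPKM or more in 6 libraries, other scalings and filters, the mitochondrial share as a covariate or as a split at 15%, a replicate block and each library left out were alternatives. The fit was tested on simulated data. Permutation tests used scipy 1.17.1.

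The transporters, gene lists, markers and the naming rule were chosen with earlier results of these data known. The rule names all 10 transporters, up to 4 called genes of each list with the smallest p, 6 fixed genes and the 2 genes most like each transporter, of which some are named only by the first. Of the marker lists not reported above, edgeR called 0 of 6 Kupffer cell, 6 stellate cell, 5 erythroid, 9 pericentral and 8 periportal genes in any comparison. In IR-Ori against IR DESeq2 called 1 Kupffer cell gene higher (3.08% of all genes) and 1 stellate and 2 erythroid genes lower (886 of 14595 genes). In IR against sham it called 1 stellate gene higher (1113 of 14595 genes). Of 6 monocyte markers 4 were higher in IR than sham in edgeR, beside 5.52% of all genes. In IR-Ori against IR 4 were lower, beside 3.01%. Of 6 sinusoidal endothelial markers 1 (Lyve1) was higher in IR, beside the same 5.52%. GENCODE M21 and RefSeq (GRCm38.p6) tables supplied biotypes, transcripts and promoters by symbol or identifier, and no coordinate was carried between builds. A list gene called in IR is not reported by name here.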

Additional observations from a re-analysis of the deposited data

Results flagged for a closer look

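Among the 30 groups of 6 libraries (10 transporters in 3 groups), 4 held a library whose gap to its nearest neighbour, divided by the range of the group, passed Dixon's 95% critical value. Chance gives about 1 in 20 for independent, normally distributed values, whereas these transporters share libraries. Slc10a1 stood at 163.28 FPKM in IR-Ori 5, with the other 5 at 27.6 to 73.9. Slco2b1 stood at 22.55 FPKM in sham 1, with the others at 15.01 to 16.6. Abcc2 was low in IR-Ori 2, at 35.36 FPKM against 59.5 to 73.9. Abcc4 stood at 2.97 FPKM in IR 5 against 0.30 to 0.73.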

How the results depend on the processing

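With edgeR on all 18 libraries, 1151 genes passed in IR against sham, 526 in IR-Ori against IR and 0 in IR-Ori against sham. In IR against sham the number was 1818 with DESeq2, 594 and 602 with limma at pseudocounts of 1 and 0.1, 1875 with the mitochondrial share as a covariate, 14 in libraries with a share of at least 15%, and 581 to 1560 with 1 library left out. Between IR-Ori and IR it was 1335 with DESeq2, 133 and 104 with limma, 290 with the covariate, 10 in libraries under 15%, where IR-Ori is a single library, 15 in the others, 172 in a fit to the pair of groups, 1711 without sham 2 and IR 1 (shares over 40%), 231 without IR-Ori 3 and IR-Ori 4, and 152 to 1056 with 1 library left out. DESeq2 called 38 genes in IR-Ori against sham. The last 2 pairs of left-out libraries were chosen after seeing the data. The number of transporters higher in IR, 1, was 0 on both sides of the split by share and in the fit to the pair, and 0 to 1 with a library left out. The number lower, 0, was 2 with DESeq2 and 1 in the fit to the pair and without IR-Ori 3 and IR-Ori 4. The number higher in IR-Ori against IR, 0, was 1 with DESeq2.

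The labels do not say that replicate numbers mark a shared animal or day. Correlations of same-numbered libraries ran from -0.44 to 0.34 in IR against sham and from 0.012 to 0.42 in IR-Ori against IR, where 4 of 6 were over 0.1 and 3 of 6 were a best match, so no comparison had every pair over 0.1 and the numbers were not taken to pair. With a replicate block 644 and 163 genes passed in IR against sham and IR-Ori against IR, the Slc51b difference was 2.28 (edgeR adjusted p = 0.0732), and 0 transporters were called.

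Signs changed as follows. In IR against sham, Abcc3 was 0.22 in libraries under 15% and Abcc4 -0.17 in the others. In IR-Ori against IR, Slc10a1 was 0.099 with the covariate and 0.75 under 15% (1 IR-Ori library), and ran from -0.79 (without IR-Ori 5) to 0.078 (without IR-Ori 3 and IR-Ori 4). Abcc3 and Abcc4 were 0.39 and 0.032 from 15%, and Slco1a1 ran from -0.036 without IR-Ori 5 to 0.38 without IR 4. In IR-Ori against sham under 15%, where IR-Ori has 1 library whose spread is assumed to equal that of the others, Slco1a4, Abcb11, Abcc4 and Slc51b were -0.41, 0.099, 0.028 and -0.38. Without IR-Ori 3 and IR-Ori 4, Slco1a4, Abcb11 and Abcc4 were -0.57, 0.0070 and 0.0061, while leaving out 1 library gave up to 0.51 for Slco1a4, down to -0.20 for Abcb11 and down to -0.41 for Abcc4. Slco1a4 was -0.16 without IR-Ori 3 alone, and Abcc4 was 0.0023 with the covariate. The cause of these changes was not tested. The difference in mitochondrial share ran from -7.38 to 1.54 points (IR minus sham), 5.32 to 12.6 (IR-Ori minus IR) and 2.91 to 9.40 (IR-Ori minus sham) with a library left out. Without IR 1 the second was 12.6 (exact permutation p = 0.0216), and without sham 2 the third was 9.40 (exact permutation p = 0.0433). Slc51b rests on 1 to 16 counts per sham library, and how far depth limits its difference was not tested.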

Other observations

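Slc10a2, the sodium-dependent bile acid carrier best known from the ileum and bile ducts, ran from 2.64 over 7.93 to 19.6 FPKM in sham, from 3.84 over 23.5 to 55.4 in IR and from 5.36 over 14.2 to 29.3 in IR-Ori. Its log2 difference in IR against sham was 1.29 ± 0.54, which did not pass (edgeR adjusted p = 0.150).

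The following values were chosen after they were seen. The high Slco1a4 libraries IR-Ori 3 and IR-Ori 4 had the highest Cyp2b10, a cytochrome P450 known to be induced through the receptor CAR, of all 18 libraries, at 31.2 and 31.5 FPKM against 0.56 to 6.96 in the other 4 of their group. Cyp3a11, another cytochrome P450 induced by xenobiotic receptors, was not highest there: it was at 284.4 and 221.3 FPKM, against 766.4 in IR-Ori 5. For Cyp2b10, sham 1 and IR 4 followed at 22.5 and 23.0 FPKM, with Slco1a4 at 13.4 and 6.17. The lincRNA Gm30784, between Slco1a4 and Slco1a1 on chromosome 6, was at 5.61 FPKM in IR-Ori 3, the highest of all libraries, and 3.77 in IR-Ori 4. Its group ranges were 1.56 to 4.76 in sham and 1.5 to 2.56 in IR.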
